A study of Mus musculus with 6 samples.

Results

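Hox genes encode homeodomain transcription factors, and in the mouse they lie in clusters A, B, C and D, in which paralog number follows the order along the chromosome. The 39 protein-coding Hox genes were taken from the count table by their symbols, as the rows named Hox with a cluster letter and a paralog number, without antisense rows. They are 39 of the 26586 genes in the table, 11 in cluster A, 10 in B, 9 in C and 9 in D. The rule for members uses names and no measured value, but it was set with earlier results of these data known. The libraries came from uteri of Axin2rtTA; tetOH2BJGFP mice, in which the Axin2 promoter drives the doxycycline-dependent activator rtTA, and rtTA switches on a green fluorescent histone H2B fusion. The labelled tissue is uterus, and the sorted cells are labelled endometrial epithelial. All mice were ovariectomized at 4 weeks of age, so both fractions came from mice without ovaries. The mice rested for 2 weeks, received doxycycline, and were 6 weeks old by their labels, with uteri taken 4 days after doxycycline. The Axin2+ group is the fluorescent fraction of 3 mice, and the Axin2- group is the non-fluorescent fraction of the same 3 mice. Total RNA was depleted of ribosomal RNA before sequencing. Library numbers stand for mice in the labels, which also mention that cells of the mice were pooled; with pooled cells, a p-value would reflect only how libraries of 1 pool vary.

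Genes with low paralog numbers act towards the head and genes with high numbers towards the tail, and members with the same number in different clusters are close relatives that can stand in for each other. In the female tract, paralogs 9 to 13 pattern the Müllerian duct along its length: Hoxa9 marks the oviduct, Hoxa10 and Hoxa11 the uterus, and Hoxa13 the cervix and upper vagina. In the adult mouse uterus Hoxa10 and Hoxa11 are known for stromal decidualization and receptivity to the embryo. Hox proteins bind DNA together with partners of the TALE homeodomain class, PBX, MEIS and PKNOX.

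The libraries held 49714402 to 59597315 counted reads each, of which 24106, 31623 and 38481 fell on Hox genes in Axin2+ libraries of mice 1, 2 and 3, and 40320, 54686 and 38460 in Axin2- libraries. Levels are given as CPM, the read count divided by the library size and its TMM scaling factor. Each of 16896 genes with enough reads was tested between fractions with edgeR's quasi-likelihood test, with Benjamini-Hochberg adjustment over all of them and a threshold of 0.05. Axin2, whose promoter drives the reporter, stood at 165, 243 and 299 CPM in libraries labelled Axin2+, against 369, 357 and 356 CPM in libraries labelled Axin2-. This goes against the labels, in a difference that missed the threshold (log2 fold change -0.61 ± 0.21 SE, edgeR adjusted p = 0.071), and every direction below is that of the labelled fractions. The fractions also differed in cell type markers. Summed CPM of 12 epithelial markers ran from 2518 to 3619 in Axin2+ libraries and from 228 to 324 in Axin2- libraries, and all 12 passed as higher. Summed CPM of 12 stromal fibroblast markers ran from 3736 to 5154 in Axin2+ libraries and from 12054 to 24143 in Axin2- libraries, and 11 passed as lower. Summed CPM of 10 smooth muscle markers ran from 261 to 400 in Axin2+ libraries and from 2437 to 6604 in Axin2- libraries, and 10 passed as lower. The sum of 10 macrophage markers was 4044, 2149 and 734 CPM in Axin2+ libraries of mice 1, 2 and 3, against 52.9 to 324 CPM in Axin2- libraries, and 10 passed as higher. The Axin2- libraries, labelled epithelial, thus held epithelial markers at a lower level and stromal and smooth muscle markers at a higher one.

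The Hox clusters split by direction. Of 32 tested members, 8 passed as higher in Axin2+ cells, all in cluster B, and 7 passed as lower, 2 of them in cluster A and 5 in cluster D. Cluster C had no call in 7 tested members. Of all 16896 genes, 27.3% passed in either direction, 14.5% as higher and 12.8% as lower, beside 46.9%, 25.0% and 21.9% of the tested Hox genes. With library size scaling in place of TMM, the calls over all genes moved from 2447 higher and 2171 lower to 3255 higher and 1573 lower, and the median log2 fold change of all genes shifted to 0.16, from -0.0077. Under that scaling 8 Hox genes passed as higher and 5 as lower. With mouse as a term in the fit, 23.4% of all genes passed, beside 8 Hox genes as higher and 7 as lower. The groups did not overlap in 22 members: all 3 Axin2+ libraries were above all 3 Axin2- libraries in 8, and below in 14, where 23.9% and 23.2% of all genes do so. The median log2 fold change was 1.97 over the 8 tested members of cluster B, -1.19 over 10 of cluster A, -0.74 over 7 of cluster C and -1.40 over 7 of cluster D.

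**Figure D1:**
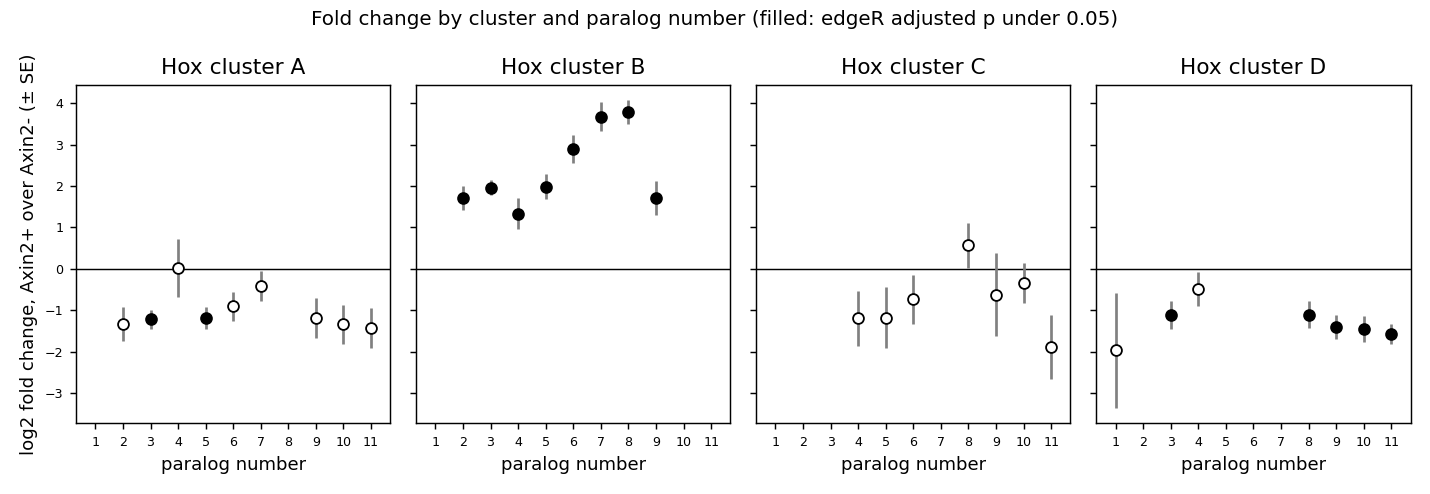
Log2 fold change of 31 tested Hox genes, Axin2+ over Axin2-, with its standard error (vertical axis), against paralog number (horizontal axis), in a panel for each cluster; filled points have an edgeR adjusted p under 0.05. All 8 points of cluster B lie above 0, up to 3.78 at Hoxb8, and the filled points of clusters A and D lie below 0, down to -1.57 at Hoxd11.

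The genes of cluster B (chromosome 11, 96194316 to 96368256 of GRCm38, which mm10 names) were higher in Axin2+ cells in every tested member, from Hoxb2 to Hoxb9. Their summed level was 224, 279 and 220 CPM in Axin2+ libraries, against 33.0, 35.7 and 42.7 CPM in Axin2- libraries. The lowest Axin2+ sum was several times the highest Axin2- sum, and cluster B averaged 241 ± 32.8 CPM in Axin2+ libraries and 37.1 ± 5.002 CPM in Axin2- libraries (SD, n = 3 each), a 6.50-fold difference. In bulk RNA, fewer cells of a type and less RNA per cell cannot be told apart. Summed epithelial and macrophage markers were also higher in Axin2+ libraries, and stromal markers lower, with the ranges given above, and their part in the difference was not tested.

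Hoxb8, Hoxb7 and Hoxb6 showed the largest differences of the tested members. Hoxb8 (ENSMUSG00000056648, chromosome 11, 96281905 to 96285315, plus strand), known in the mouse for spinal sensory circuits and for holding myeloid progenitors in an undifferentiated state, stood at 72.0, 87.0 and 60.7 CPM in Axin2+ libraries, against 3.42, 6.64 and 5.89 CPM in Axin2- libraries. Every Axin2+ library was far above every Axin2- library, and the gene was 13.8-fold higher in Axin2+ cells (log2 fold change 3.78 ± 0.29 SE, edgeR adjusted p = 0.000345). Hoxb7 (ENSMUSG00000038721, 96286623 to 96290162), whose promoter is used to label the Wolffian duct and ureteric bud, stood at 35.8, 45.1 and 40.6 CPM in Axin2+ libraries, against 3.64, 4.21 and 1.63 CPM in Axin2- libraries. The groups were again wide apart, at 12.8-fold (log2 fold change 3.68 ± 0.36 SE, edgeR adjusted p = 0.000722). Hoxb6 (ENSMUSG00000000690, 96292476 to 96301569), a trunk and lateral plate gene, stood at 50.01, 62.7 and 51.3 CPM in Axin2+ libraries, against 4.36, 6.76 and 10.9 CPM in Axin2- libraries. It was 7.46-fold higher in Axin2+ cells (log2 fold change 2.90 ± 0.33 SE, edgeR adjusted p = 0.00135), and mouse 3 had the highest of the Axin2- values.

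The other tested members of cluster B differed less. Hoxb5, a gene of the vagal neural crest, stood at 12.3, 14.9 and 10.7 CPM in Axin2+ libraries, against 3.597, 2.11 and 3.85 CPM in Axin2- libraries, and its log2 fold change was 1.98 ± 0.30 SE (edgeR adjusted p = 0.00376). Hoxb3, a hindbrain and pharyngeal gene, stood at 24.7, 33.9 and 27.5 CPM in Axin2+ libraries, against 7.17, 6.75 and 8.20 CPM in Axin2- libraries (log2 fold change 1.96 ± 0.18 SE, edgeR adjusted p = 0.000617). Hoxb3 had the smallest standard error of the tested Hox genes, and its libraries within a fraction lay close together. Of its exon bases, 52.9% are shared with an antisense gene, Hoxb3os, as are 27.3% of those of Hoxb2, and no source used here says whether the counting used strand. Hoxb2, which patterns the hindbrain, stood at 12.9, 20.7 and 14.6 CPM in Axin2+ libraries, against 5.72, 5.58 and 3.36 CPM in Axin2- libraries (log2 fold change 1.72 ± 0.30 SE, edgeR adjusted p = 0.00623). Hoxb4, known for expanding blood stem cells when overexpressed, stood at 13.7, 12.6 and 12.04 CPM in Axin2+ libraries, against 4.06, 3.02 and 8.11 CPM in Axin2- libraries. The groups did not overlap, and the spread was wider in the Axin2- fraction (log2 fold change 1.33 ± 0.37 SE, edgeR adjusted p = 0.0355). Hoxb9, a rib and mammary gene, was low in both fractions, at 2.98, 2.13 and 2.70 CPM in Axin2+ libraries, against 1.05, 0.577 and 0.762 CPM in Axin2- libraries (log2 fold change 1.71 ± 0.42 SE, edgeR adjusted p = 0.0235). Hoxb3, Hoxb5, Hoxb6, Hoxb7 and Hoxb8 passed in all 17 alternative fits. Hoxb4 lost its call without the Axin2+ library of mouse 1, 2 or 3 (adjusted p = 0.0715, 0.095 and 0.0625) and without the Axin2- library of mouse 1 or 2 (0.0994 and 0.0667). Hoxb9 lost it without any 1 library other than Axin2- of mouse 1 (0.0537 to 0.0643). Over all alternatives the adjusted p ran from 0.00364 to 0.166 for Hoxb4 and from 0.000563 to 0.128 for Hoxb9.

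**Figure D2:**
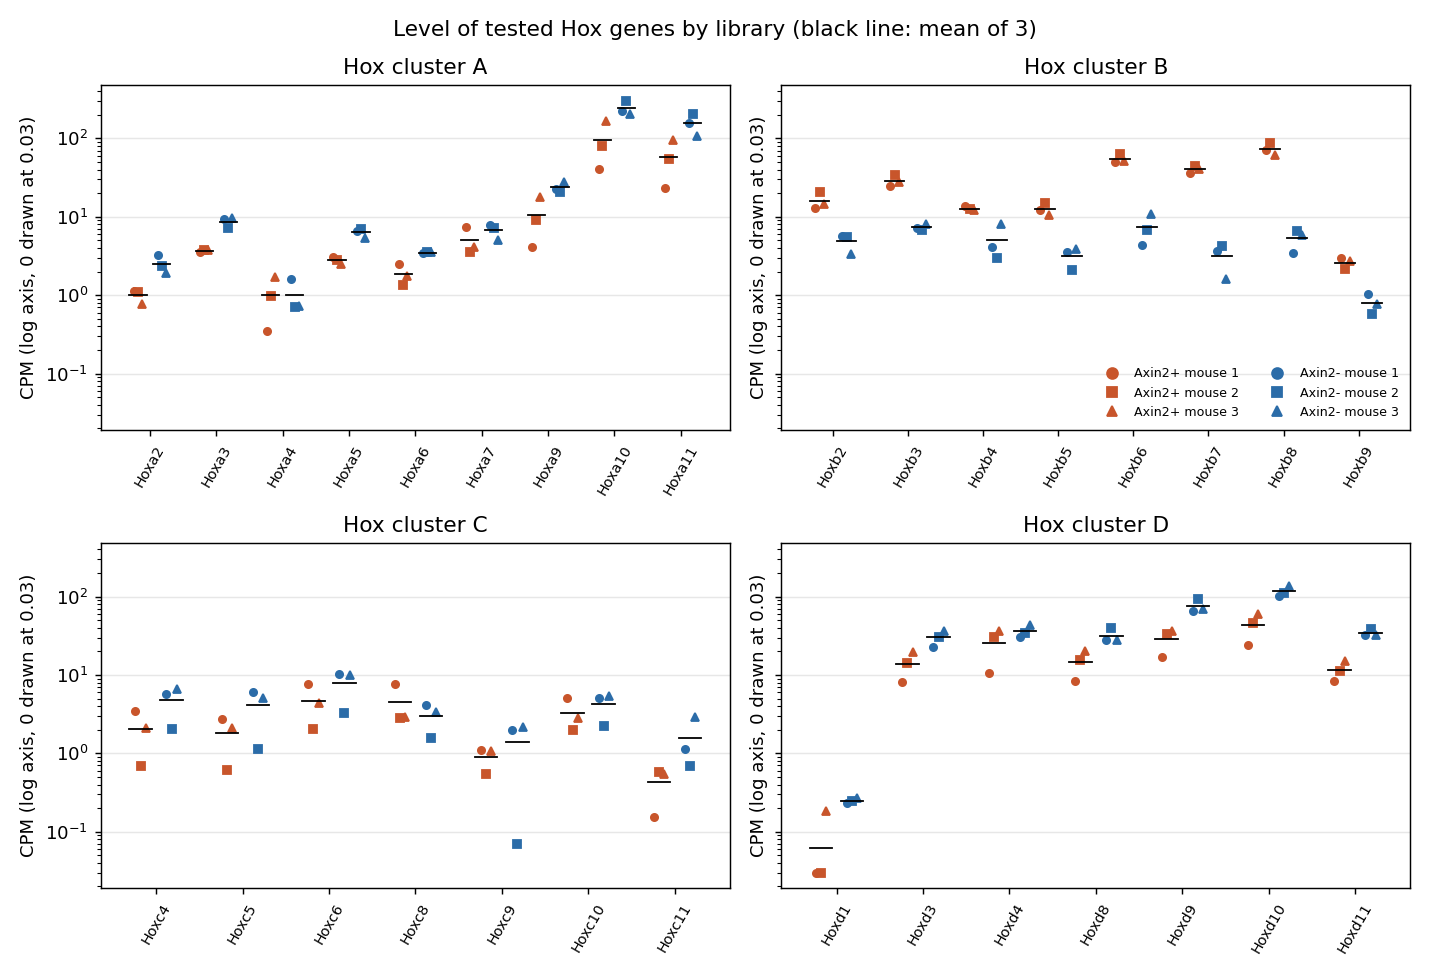
CPM of 31 tested Hox genes by library, on a log axis, with Axin2+ libraries in orange left of Axin2- libraries in blue, a symbol for each mouse and a black line at the mean of 3. In cluster B the orange symbols lie above the blue ones at every gene, and in cluster D below them at every gene but Hoxd4.

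Sequence around Hoxb8 is shown because it had the largest fold change of the members. The 250 bases before its start (chr11:96281655-96281904, plus strand of GRCm38.p6, from RefSeq) are set beside those of Hoxd10 (chr2:74691641-74691890, plus strand), a cluster D member that fell, and capitals mark matches of the motifs listed next.
Hoxb8: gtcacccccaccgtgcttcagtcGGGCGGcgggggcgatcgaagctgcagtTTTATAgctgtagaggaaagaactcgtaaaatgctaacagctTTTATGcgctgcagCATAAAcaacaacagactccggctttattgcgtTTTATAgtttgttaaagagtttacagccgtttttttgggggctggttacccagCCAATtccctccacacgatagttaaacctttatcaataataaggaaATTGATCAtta
Hoxd10: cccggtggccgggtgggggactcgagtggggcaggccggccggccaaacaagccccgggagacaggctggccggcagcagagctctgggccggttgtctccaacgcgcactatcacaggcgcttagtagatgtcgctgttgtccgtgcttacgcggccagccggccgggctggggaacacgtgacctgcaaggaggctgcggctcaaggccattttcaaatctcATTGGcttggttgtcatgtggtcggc

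Both strands were searched for the CCAAT box, for TATAAA as the core promoter box of that name, for the GC box GGGCGG, for the caudal type motif TTTATG, for the PBX-HOX type motif TGATNNAT and for the MEIS type motif TGACAG, and matches of different motifs may overlap. The Hoxb8 window held 2 TATAAA, 1 CCAAT, 1 GGGCGG, 2 TTTATG and 1 TGATNNAT matches, and the Hoxd10 window held 1 CCAAT match. Other members differed from this pair. The window of Hoxb4, also called higher, held 0 matches of these motifs. The windows of Hoxd11, called lower, held 1 TTTATG, 1 GGGCGG and 1 TGATNNAT match. Of cluster B the RefSeq table matched only Hoxb1, Hoxb4 and Hoxb8, and of cluster C only Hoxc4. In all it matched 22 members, mostly of clusters A and D, with 24 promoters. TTTATG was in 5 of these (20.8%), beside 10.8% of all 32851 promoters of that length, and TGATNNAT was in 4 (16.7%), beside 7.68%. CCAAT was in 14 (58.3%), beside 33.9%, GGGCGG in 10 (41.7%), beside 32.7%, TATAAA in 4 (16.7%), beside 12.4%, and TGACAG in 2 (8.33%), beside 15.9%. The median number of CG dinucleotides was 12.5 in Hox promoters (2 to 35) and 6.0 over all promoters (0 to 56), 12 at Hoxb8 and 20 at Hoxd10. These matches describe letters in the windows, and a link of motifs to the direction of change was not tested.

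The clusters also hold microRNA genes, and a nearly full-length site for miR-196 in the Hoxb8 transcript is a known cleavage target in the mouse. Mature sequences are from RefSeq on GRCm38.p6, with the seed, bases 2 to 8, in capitals. miR-196a-5p lies in cluster B (chr11:96265187-96265208, plus strand) and again in cluster C, and miR-196b-5p in cluster A (chr6:52230129-52230150, minus strand). These share 1 seed and differ by A12C, counted from 1 at the 5′ end of miR-196a-5p. miR-10a-5p lies in cluster B (chr11:96317186-96317208, plus strand) and miR-10b-5p in cluster D (chr2:74726074-74726096, plus strand). These share another seed and differ by U12A.
miR-196a-5p: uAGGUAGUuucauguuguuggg
miR-196b-5p: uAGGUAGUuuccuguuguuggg
miR-10a-5p: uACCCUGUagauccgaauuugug
miR-10b-5p: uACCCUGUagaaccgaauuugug
Hoxb8 site: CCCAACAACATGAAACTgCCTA

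The Hoxb8 site lies in the 3′ UTR (chr11:96284888-96284909, plus strand), and its capitals mark the bases that form Watson-Crick pairs with miR-196a-5p, 21 of 22. The position without a Watson-Crick pair is U5C, the microRNA's base first and the base of the site's reverse complement after it, counted from the 5′ end of the microRNA. The same site has 20 of 22 such pairs with miR-196b-5p. In the transcripts of the 39 members, the next best site for miR-196a-5p had 15 of 22. Precursor rows held few reads: Mir196a-1 had 4, 2 and 0 reads in Axin2+ libraries, against 0, 0 and 6 in Axin2- libraries, and Mir196b had 12, 77 and 47 reads in Axin2+ libraries, against 39, 41 and 52 in Axin2- libraries. The groups overlapped for both. Mir196b shares exon bases with Hoxa9 on the same strand, and Mir10b lies within the span of Hoxd4 on its strand. Reads on these rows may therefore come from Hox RNA, and they do not measure mature microRNA. Mir10a had 13, 18 and 4 reads in Axin2+ libraries, against 0, 0 and 3 in Axin2- libraries, too few to be tested, and Mir10b had 0, 35 and 42 reads in Axin2+ libraries, against 12, 20 and 26 in Axin2- libraries. Mir10a lies between Hoxb5 and Hoxb4, and its Axin2+ reads were above its Axin2- reads in mice 1 and 2. In mouse 3 they were nearly equal, at 4 against 3.

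Cluster A (chromosome 6, 52155590 to 52260880) was lower in Axin2+ cells as a sum. The sum was 87.2, 159 and 293 CPM in Axin2+ libraries, against 433, 560 and 368 CPM in Axin2- libraries. The groups did not overlap, at 180 ± 105 CPM in Axin2+ libraries and 454 ± 97.4 CPM in Axin2- libraries (SD, n = 3 each), a 2.52-fold difference. Hoxa10 and Hoxa11, the uterine genes of the cluster, took most of its reads and did not pass the edgeR threshold. Hoxa10 (ENSMUSG00000000938, chromosome 6, 52231197 to 52240854, minus strand) stood at 40.9, 81.1 and 166 CPM in Axin2+ libraries, against 222, 304 and 207 CPM in Axin2- libraries. Every Axin2+ value was below every Axin2- value, while the Axin2+ libraries differed among themselves by several fold (log2 fold change -1.35 ± 0.47 SE, edgeR adjusted p = 0.0708). Hoxa11 (ENSMUSG00000038210, 52242106 to 52245810, minus strand) stood at 23.6, 55.0 and 94.3 CPM in Axin2+ libraries, against 155, 207 and 107 CPM in Axin2- libraries. It had the same order of libraries in the Axin2+ fraction, and the groups did not overlap (log2 fold change -1.44 ± 0.48 SE, edgeR adjusted p = 0.0646). Hoxa9, the oviduct paralog, stood at 4.09, 9.16 and 18.1 CPM in Axin2+ libraries, against 22.7, 20.8 and 28.2 CPM in Axin2- libraries (log2 fold change -1.20 ± 0.48 SE, edgeR adjusted p = 0.108).

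In the Axin2+ libraries of mice 1, 2 and 3 the stromal marker Pdgfra, which encodes a PDGF receptor, stood at 92.7, 270 and 332 CPM, and the collagen gene Col1a1 at 399, 248 and 597 CPM. The sum of the 12 stromal markers was 4470, 3736 and 5154 CPM in these libraries, lowest in mouse 2. The macrophage markers Csf1r, the receptor of colony stimulating factor, and Cd68 stood at 596, 251 and 94.2 CPM and at 91.3, 57.9 and 22.4 CPM. The library of mouse 1 was lowest in Hoxa9, Hoxa10, Hoxa11 and Pdgfra, not in Col1a1 or the stromal sum, and highest in both macrophage markers. From mouse 1 to 3, summed smooth muscle markers rose (261, 313 and 400 CPM), as did pericyte (56.4, 145 and 153) and uterine gland markers (224, 233 and 333). Summed epithelial markers fell, at 3619, 3035 and 2518 CPM. Endothelial markers (238, 357 and 253) followed neither order. The part of these cells in the Hox values was not tested. Without the Axin2+ library of mouse 3, edgeR called Hoxa10 (log2 fold change -1.9998, adjusted p = 0.00868), Hoxa11 (-1.99, 0.0213) and Hoxa9 (-1.85, 0.0155). Over all 17 alternatives the adjusted p ran from 0.00786 to 0.339 for Hoxa10, from 0.00573 to 0.309 for Hoxa11 and from 0.0155 to 0.313 for Hoxa9, with the lowest values for Hoxa10 and Hoxa11 in DESeq2.

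The members of cluster A that passed were Hoxa3 and Hoxa5, at low levels. Hoxa3, a gene of the thymus and parathyroid primordia, stood at 3.57, 3.78 and 3.76 CPM in Axin2+ libraries, against 9.25, 7.10 and 9.62 CPM in Axin2- libraries. It was 2.34-fold lower in Axin2+ cells (log2 fold change -1.22 ± 0.24 SE, edgeR adjusted p = 0.00989), and 27.1% of its exon bases are shared with other genes. Hoxa5, a gene of lung development, stood at 3.09, 2.78 and 2.51 CPM in Axin2+ libraries, against 6.59, 7.01 and 5.37 CPM in Axin2- libraries. It was 2.26-fold lower in Axin2+ cells (log2 fold change -1.18 ± 0.27 SE, edgeR adjusted p = 0.017), a call lost without the Axin2+ library of mouse 2 or 3 (adjusted p = 0.0689 and 0.051) or the Axin2- library of mouse 1 (0.0601), of a range from 4.95e-05 to 0.133 over all alternatives. Hoxa2, which sets the identity of the second pharyngeal arch, stood at 1.12, 1.09 and 0.763 CPM in Axin2+ libraries, against 3.25, 2.32 and 1.92 CPM in Axin2- libraries. Its groups did not overlap, and its adjusted p of 0.051 lay just past the threshold (log2 fold change -1.33 ± 0.41 SE). Hoxa6, a trunk gene, stood at 2.48, 1.34 and 1.77 CPM in Axin2+ libraries, against 3.44, 3.51 and 3.56 CPM in Axin2- libraries (edgeR adjusted p = 0.0965), also without overlap. Hoxa7 and Hoxa4, genes of trunk and neck, overlapped between fractions. Hoxa7 stood at 7.42, 3.55 and 4.08 CPM in Axin2+ libraries, against 7.89, 7.13 and 5.07 CPM in Axin2- libraries (log2 fold change -0.42 ± 0.36 SE). Hoxa4 averaged 1.01 ± 0.694 CPM in Axin2+ libraries and 1.005 ± 0.511 CPM in Axin2- libraries (SD, n = 3 each).

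Cluster D (chromosome 2, 74668310 to 74765142) was lower in Axin2+ cells, and 5 of its 7 tested members passed. The sum was 76.6, 150 and 187 CPM in Axin2+ libraries, against 283, 349 and 346 CPM in Axin2- libraries. The highest Axin2+ sum was below the lowest Axin2- sum, and the means of 138 ± 56.1 CPM in Axin2+ libraries and 326 ± 37.1 CPM in Axin2- libraries (SD, n = 3 each) differed 2.37-fold. Stromal and smooth muscle markers were also lower in Axin2+ libraries, as given above, and their part was not tested. All 7 tested members had their lowest Axin2+ value in mouse 1 and their highest in mouse 3, counting equal values of 0 at Hoxd1 as lowest.

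Hoxd11, Hoxd10 and Hoxd9, relatives of the Drosophila gene Abdominal-B, had the smallest p of the cluster. Hoxd11 (ENSMUSG00000042499, chromosome 2, 74679557 to 74687016, plus strand), which acts with Hoxa11 in kidney and forelimb, stood at 8.28, 11.3 and 15.1 CPM in Axin2+ libraries, against 32.3, 38.9 and 32.0 CPM in Axin2- libraries. It was 2.98-fold lower in Axin2+ cells (log2 fold change -1.57 ± 0.24 SE, edgeR adjusted p = 0.00362). Hoxd10 (ENSMUSG00000050368, 74691924 to 74695105), a lumbar spinal cord and limb gene, stood at 23.9, 45.7 and 59.3 CPM in Axin2+ libraries, against 103, 112 and 137 CPM in Axin2- libraries. The groups were apart by more than the range of the Axin2+ libraries, and the gene was 2.73-fold lower in Axin2+ cells (log2 fold change -1.45 ± 0.31 SE, edgeR adjusted p = 0.0155). Hoxd9 (ENSMUSG00000043342, 74697727 to 74700208), which acts with its paralogs in limb and mammary gland, stood at 17.2, 32.8 and 36.4 CPM in Axin2+ libraries, against 66.2, 93.9 and 68.6 CPM in Axin2- libraries. It was 2.65-fold lower in Axin2+ cells (log2 fold change -1.40 ± 0.29 SE, edgeR adjusted p = 0.0135).

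Hoxd8 and Hoxd3 passed closer to the threshold. Hoxd8, a trunk gene, stood at 8.47, 15.3 and 20.4 CPM in Axin2+ libraries, against 28.0, 39.3 and 28.2 CPM in Axin2- libraries (log2 fold change -1.11 ± 0.32 SE, edgeR adjusted p = 0.0406). Hoxd3, which shapes the first neck vertebrae, stood at 8.04, 14.1 and 19.5 CPM in Axin2+ libraries, against 23.0, 30.8 and 36.5 CPM in Axin2- libraries (log2 fold change -1.12 ± 0.33 SE, edgeR adjusted p = 0.045). Neither overlapped between groups. Hoxd4, another neck vertebra gene, stood at 10.6, 30.4 and 35.9 CPM in Axin2+ libraries, against 30.9, 34.3 and 43.4 CPM in Axin2- libraries, and its groups overlapped (log2 fold change -0.50 ± 0.41 SE, edgeR adjusted p = 0.409). Hoxd3 and Hoxd4 share exons on the same strand, 62.9% of the exon bases of Hoxd3 and 52.3% of those of Hoxd4 being shared with other genes, so how their reads were divided is uncertain. Hoxd1, a gene of pain-sensing neurons, had 0, 0 and 10 reads in Axin2+ libraries, against 12, 14 and 13 reads in Axin2- libraries (edgeR adjusted p = 0.331). Without the Axin2+ library of mouse 3, its only Axin2+ library with reads, Hoxd1 was called lower (adjusted p = 0.0458, of a range from 0.0458 to 0.628), and it is then at 0 in both Axin2+ libraries left.

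Several cluster D calls near the threshold were lost when 1 library was left out, with fewer degrees of freedom. Hoxd10, with log2 fold changes of -1.49 and -1.31 in these fits, lost its call without the Axin2+ library of mouse 2 (adjusted p = 0.0519) and without the Axin2- library of mouse 3 (0.0573), of a range over all alternatives from 6.26e-05 to 0.107. Hoxd3 lost it without the Axin2+ library of mouse 1 or 2 (0.0566 and 0.12) and without any Axin2- library (0.0586 to 0.137), of a range from 0.0058 to 0.212. Hoxd8 lost it without the Axin2+ library of mouse 2 (0.109) and without any Axin2- library (0.0789 to 0.109), of a range from 0.00457 to 0.222. The count of Hox genes lower, 7 with all libraries, was 3 without the Axin2+ library of mouse 2 and 4 without the Axin2- library of mouse 1 or of mouse 3. No Hox gene passed as lower without both libraries of mouse 2, where 4 libraries are left. In that fit 693 of 17179 genes passed as lower, and 5 Hox genes passed as higher.

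**Figure D3:**
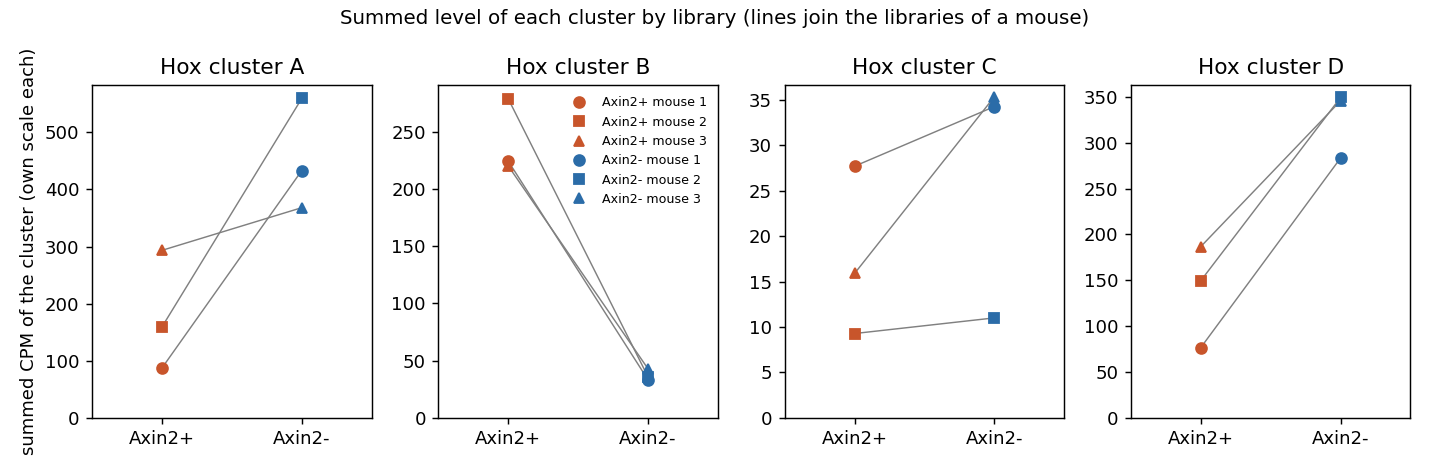
Summed CPM of each Hox cluster by library, with a scale of its own from 0 in each panel, Axin2+ left of Axin2-, and a line joining the fractions of each mouse. In every mouse the Axin2+ library is the higher one in cluster B and the lower one in clusters A, C and D, and in cluster C the libraries of mouse 2 lie lowest in both fractions.

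Cluster C (chromosome 15, 102921103 to 103036852) was low in both fractions, and no member passed. The sum was 27.7, 9.27 and 15.9 CPM in Axin2+ libraries, against 34.3, 10.99 and 35.4 CPM in Axin2- libraries. The groups overlapped, at 17.6 ± 9.34 CPM in Axin2+ libraries and 26.9 ± 13.8 CPM in Axin2- libraries (SD, n = 3 each), and the sum was lower in Axin2+ in each of the 3 mice. The libraries of mouse 2 had the lowest value of their fraction in both fractions for 6 of 7 tested members. Summed stromal markers were also lowest in mouse 2 in both fractions, at 3736 CPM in Axin2+ and 12054 CPM in Axin2-. Summed smooth muscle markers were lowest in mouse 2 in the Axin2- fraction (2437 CPM), not in the Axin2+ fraction. The part of these cells in cluster C was not tested. Hoxc6, a gene of thorax and mammary gland, stood at 7.61, 2.02 and 4.36 CPM in Axin2+ libraries, against 10.2, 3.27 and 9.93 CPM in Axin2- libraries (log2 fold change -0.74 ± 0.59 SE, edgeR adjusted p = 0.389). Hoxc8, which patterns brachial motor neurons and ribs, had a positive value, at 7.61, 2.83 and 2.94 CPM in Axin2+ libraries, against 4.16, 1.56 and 3.34 CPM in Axin2- libraries (log2 fold change 0.56 ± 0.54 SE, edgeR adjusted p = 0.472). Hoxc11, a lumbar and hindlimb gene, was the member of the cluster whose groups did not overlap, at 0.155, 0.585 and 0.540 CPM in Axin2+ libraries, against 1.15, 0.682 and 2.92 CPM in Axin2- libraries (log2 fold change -1.89 ± 0.78 SE, edgeR adjusted p = 0.113). Hoxc4, Hoxc5, Hoxc9 and Hoxc10 averaged 2.07, 1.80, 0.905 and 3.31 CPM in Axin2+ libraries and 4.76, 4.10, 1.41 and 4.22 CPM in Axin2- libraries, with adjusted p from 0.213 to 0.677.

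The 7 members with too few reads to be tested were Hoxb1 and those with paralog numbers 12 and 13. Hoxb13, a gene of prostate and hindgut, Hoxc13, a gene of hair, and Hoxc12 had 0 reads in all 6 libraries, which allows up to 3 reads per library, or between 0.0518 and 0.0618 CPM, for counting error alone. Hoxa13, the cervical and vaginal paralog, had 2, 22 and 4 reads in Axin2+ libraries, against 4, 0 and 2 reads in Axin2- libraries. Hoxd12 and Hoxd13, genes of the digits, had 0 reads in every Axin2+ library, against 5, 1 and 0 reads of Hoxd12 and 5, 0 and 0 reads of Hoxd13 in Axin2- libraries. Hoxb1, a hindbrain gene, had 3, 1 and 0 reads in Axin2+ libraries, against 0, 0 and 2 in Axin2- libraries. With so few reads, no difference was tested in these members.

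Divided by length of exon (CPM per kilobase), Hoxa10 had the highest mean level in both fractions, 29.4 in Axin2+ cells and 74.7 in Axin2- cells. In Axin2+ cells Hoxb6 (27.8), Hoxb8 (27.8), Hoxb7 (26.2), Hoxa11 (25.2), Hoxd10 (23.7) and Hoxd9 (13.5) came next on this scale, and Hoxa10, Hoxa11 and Hoxd10 varied among the Axin2+ libraries by more than the gaps between these neighbours. In Axin2- cells Hoxa11 (68.4), Hoxd10 (64.5), Hoxd9 (35.7), Hoxd4 (12.3) and Hoxd8 (11.6) came next, and the first of cluster B was Hoxb6 at rank 11 with 3.73. The place of Hoxd4 is uncertain. It shares 52.3% of its exon bases with other genes, and its length belongs to another gene identifier than the authors' one. The gaps between Hoxa10, Hoxa11 and Hoxd10 were smaller than the spread between Axin2- libraries, and Hoxd9 stood below them by more than that spread for Hoxd10. Cluster B held 44.7% of the Hox total per length in Axin2+ cells and 4.41% in Axin2- cells.

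Of the reads on Hox genes, cluster B took 53.9%, 46.7% and 30.8% in Axin2+ libraries, against 4.21%, 3.73% and 5.39% in Axin2- libraries. Cluster A took 29.5 ± 10.3% in Axin2+ libraries and 53.4 ± 6.24% in Axin2- libraries, cluster D took 23.2 ± 4.16% in Axin2+ libraries and 38.8 ± 4.23% in Axin2- libraries, and cluster C took 3.48 ± 2.78% in Axin2+ libraries and 3.33 ± 1.89% in Axin2- libraries (SD, n = 3 each). The widest Wilson 95% interval of a share in 1 library was 0.629 percentage points on each side, so the spread between libraries was larger than counting error. Shares of 1 total move against each other, so a higher share of cluster B lowers the others.

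By CPM, most of the summed difference of cluster B lay in paralogs 5 to 8 and most of that of clusters A and D in paralogs 9 to 13, where most of their reads were. Summed over paralogs 5 to 8, cluster B stood at 181 ± 25.0 CPM in Axin2+ libraries and 19.0 ± 3.66 CPM in Axin2- libraries, and over paralogs 1 to 4 at 57.5 ± 8.46 CPM in Axin2+ libraries and 17.3 ± 2.21 CPM in Axin2- libraries (SD, n = 3 each). Over paralogs 9 to 13, cluster A stood at 164 ± 106 CPM in Axin2+ libraries and 424 ± 97.4 CPM in Axin2- libraries, and cluster D at 83.3 ± 31.2 CPM in Axin2+ libraries and 228 ± 23.3 CPM in Axin2- libraries. Paralogs 1 to 4 of cluster A stood at 6.01 ± 0.392 CPM in Axin2+ libraries and 12.6 ± 2.47 CPM in Axin2- libraries, and paralogs 5 to 8 at 9.67 ± 2.90 CPM in Axin2+ libraries and 16.5 ± 2.19 CPM in Axin2- libraries, both without overlap. In cluster D, paralogs 1 to 4 stood at 39.6 ± 18.9 CPM in Axin2+ libraries and 66.6 ± 13.1 CPM in Axin2- libraries, with overlap, and its paralogs 5 to 8 are Hoxd8 alone. No member of cluster A with a paralog number from 9 to 13 passed.

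For each of the 8 paralog numbers with a tested member in cluster B and another elsewhere, numbers 2 to 9, the cluster B gene had the highest log2 fold change. Outside cluster B, Hoxa4 (0.01, and below 0 in DESeq2 and with upper quartile scaling) and Hoxc8 (0.56) had positive log2 fold changes, and neither passed. Within a library, the reads of a cluster B gene were divided by those of its paralog with the most reads in another cluster, a ratio that does not depend on the scaling of libraries and is not corrected for length. Hoxb8 over Hoxd8 was 8.50, 5.68 and 2.98 in Axin2+ libraries, against 0.122, 0.169 and 0.209 in Axin2- libraries, so Hoxb8 had more reads than Hoxd8 in every Axin2+ library and fewer in every Axin2- library, a 32.2-fold difference. Hoxb7 over Hoxa7 was 4.83, 12.7 and 9.97 in Axin2+ libraries, against 0.461, 0.591 and 0.321 in Axin2- libraries. Hoxb3 over Hoxd3 and Hoxb5 over Hoxa5 likewise crossed 1, Hoxb3 over Hoxd3 at 1.41 to 3.07 in Axin2+ libraries, against 0.219 to 0.312 in Axin2- libraries, and Hoxb5 over Hoxa5 at 3.97 to 5.35 in Axin2+ libraries, against 0.302 to 0.717 in Axin2- libraries. Hoxb4 over Hoxd4 had the smallest difference, with 1.28, 0.414 and 0.335 in Axin2+ libraries, against 0.131, 0.0882 and 0.187 in Axin2- libraries, a 4.35-fold difference. The groups did not overlap in any of the 8 ratios, and the exact two-sided permutation test gave p = 0.1 for each (0.1 after Benjamini-Hochberg adjustment over 8), the smallest that 3 against 3 allows. Each cluster B gene was already without overlap by itself, and each paralog it was divided by had a negative log2 fold change. The ratios restate those differences and are no separate support for them.

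**Figure D4:**
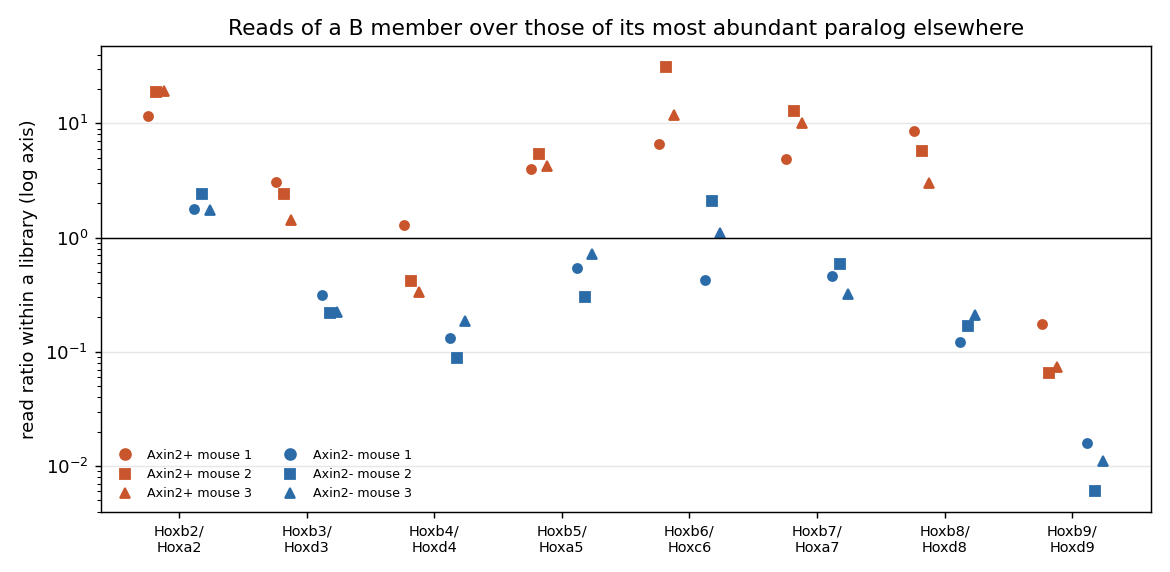
Reads of each of 8 cluster B genes divided by those of the paralog with the most reads in another cluster, per library, on a log axis with a line at 1; Axin2+ libraries are orange and left of Axin2- libraries in blue, with a symbol for each mouse. The orange symbols lie above the blue ones in all 8 ratios, and Hoxb9 over Hoxd9 lies below 1 in both fractions.

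Of the noncoding rows inside the clusters, Hoxa11as had the most reads. It is antisense to Hoxa11, with which 35.0% of the exon bases of Hoxa11 overlap, and without a stated strand setting the reads of the pair cannot be told apart with certainty. Hoxa11as had 405, 1017 and 1601 reads in Axin2+ libraries, against 2406, 3168 and 1999 in Axin2- libraries, or 18.7 ± 11.4 CPM in Axin2+ libraries and 47.8 ± 7.15 CPM in Axin2- libraries (SD, n = 3 each). The groups did not overlap and the difference missed the threshold (log2 fold change -1.36 ± 0.46 SE, edgeR adjusted p = 0.0683), as at Hoxa11. The antisense row at Hoxd3, Hoxd3os1, had 7, 33 and 27 reads in Axin2+ libraries, against 52, 45 and 41 reads in Axin2- libraries (edgeR adjusted p = 0.294).

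TALE cofactors were lower in Axin2+ cells where they passed. Of 9 tested, 5 passed as lower and 0 as higher, with a median log2 fold change of -0.81, beside 12.8% of all genes lower and a median of -0.0077. Meis2 stood at 31.0, 29.2 and 33.8 CPM in Axin2+ libraries, against 183, 103 and 202 CPM in Axin2- libraries (log2 fold change -2.38 ± 0.25 SE, edgeR adjusted p = 0.00103), and the Axin2- value of mouse 2 was the lowest of its fraction. Meis3 averaged 9.51 ± 1.63 CPM in Axin2+ libraries and 21.1 ± 3.05 CPM in Axin2- libraries, and Meis1 95.4 ± 9.67 CPM in Axin2+ libraries and 167 ± 31.1 CPM in Axin2- libraries (SD, n = 3 each). Pknox2, named after its value was seen, averaged 29.7 ± 10.3 CPM in Axin2+ libraries and 72.6 ± 15.7 CPM in Axin2- libraries. Pbx2, likewise named after its value was seen, did not pass, at 34.3 ± 1.69 CPM in Axin2+ libraries and 37.0 ± 1.85 CPM in Axin2- libraries.

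Of 22 listed regulators known to act on Hox clusters, which are Cdx factors, Trithorax and Polycomb proteins, demethylases, retinoic acid receptors and CTCF, 19 were tested, 0 passed as higher and 2 as lower, beside 14.5% and 12.8% of all genes, with a median log2 fold change of -0.12. Kdm6b, a demethylase of the Polycomb mark H3K27me3, stood at 277, 273 and 256 CPM in Axin2+ libraries, against 389, 403 and 409 CPM in Axin2- libraries, groups narrow and apart (log2 fold change -0.58 ± 0.11 SE, edgeR adjusted p = 0.0101). Rarg, a retinoic acid receptor, averaged 83.4 ± 6.62 CPM in Axin2+ libraries and 116 ± 17.6 CPM in Axin2- libraries (edgeR adjusted p = 0.0421). Cdx1 and Cdx2 had 0 reads in all libraries.

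Of 9 tested genes reported to act downstream of Hoxa10 or Hoxa11 in the uterus, 1 passed as higher and 3 as lower, beside 14.5% and 12.8% of all genes. Fkbp4, a cochaperone of the progesterone receptor, stood at 309, 352 and 357 CPM in Axin2+ libraries, against 174, 182 and 128 CPM in Axin2- libraries (log2 fold change 1.07 ± 0.16 SE, edgeR adjusted p = 0.00393). Ptger4, a prostaglandin E receptor, averaged 60.4 ± 6.38 CPM in Axin2+ libraries and 137 ± 22.5 CPM in Axin2- libraries, and passed as lower. Itgb3, an integrin subunit, averaged 26.2 ± 6.79 CPM in Axin2+ libraries and 62.6 ± 12.6 CPM in Axin2- libraries, and Kat2b, an acetyltransferase, 46.9 ± 3.14 CPM in Axin2+ libraries and 66.7 ± 9.37 CPM in Axin2- libraries (SD, n = 3 each), and both passed as lower. The decidual genes Igfbp1 and Prl8a2 were not tested and had 0 reads.

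Of the genes that pattern the Müllerian duct, 6 of 11 tested passed as higher and 0 as lower, beside 14.5% of all genes higher, with a median log2 fold change of 2.88. Msx1, a homeobox gene of the uterine epithelium, stood at 449, 618 and 570 CPM in Axin2+ libraries, against 22.5, 33.5 and 29.1 CPM in Axin2- libraries (log2 fold change 4.27 ± 0.22 SE, edgeR adjusted p = 0.000192). Wnt7a, a Wnt ligand of the uterine epithelium, stood at 59.4, 99.6 and 54.7 CPM in Axin2+ libraries, against 2.59, 7.24 and 5.31 CPM in Axin2- libraries. Pax8, a duct gene, averaged 96.5 ± 1.91 CPM in Axin2+ libraries and 7.44 ± 3.98 CPM in Axin2- libraries, and Msx2 14.9 ± 1.20 CPM in Axin2+ libraries and 0.692 ± 0.386 CPM in Axin2- libraries (SD, n = 3 each). The groups did not overlap in these genes. Epithelial markers were higher in the same libraries, Epcam at 205, 254 and 223 CPM in Axin2+ libraries, against 7.58, 18.3 and 11.3 CPM in Axin2- libraries, and their part in either group was not tested.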

How the data were processed

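Reads per gene were counted in 6 RNA-seq libraries, 3 Axin2+ and 3 Axin2-. The authors deposited whole-number counts per gene, and their deposited comparison table lists 30 of the members with, per the file headers, a log2 fold change, a mean log2 CPM, an F statistic (taken as a score) and p-values. The submitters' processing notes name mm10, edgeR 3.22.5, StringTie 1.3.3, featureCounts 1.5.3 of Subread, STAR 2.5.3a and bcl2fastq 2.20.0.422. The annotation version and strand setting were not given in the sources used here.

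Testing used edgeR 4.0.16 (R 4.3.3): filterByExpr (minimum count 10), TMM factors, robust quasi-likelihood F test without a mouse term, and Benjamini-Hochberg adjustment over 16896 genes. The standard error is the log2 fold change over the root of its F. Ratios were tested in Python 3.11.15 with scipy 1.17.1. Above 0.5 CPM in 3 libraries, the filter under which this fit gives the authors' table, log2 fold changes of members differed from the deposited ones by at most 5.33e-15. The scripts were tested on simulated counts. Alternatives were DESeq2 1.42.0, other scalings and filters, a mouse term, a fit without robust estimation, and leaving out libraries.

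Coordinates, exon lengths and overlaps come from GENCODE M21 (GRCm38). The authors' gene identifier equals that of M21 in 29 of 30 members, not for Hoxd4. Of 39 members, 16 share exon bases with another gene, 4 of them with another Hox gene. Sequences come from RefSeq on GRCm38.p6, and the microRNA site from M21 transcripts. Mouse numbers pair the libraries, per the labels, and deviations from fraction means correlated at 0.318, 0.034 and -0.124 for mice 1, 2 and 3, and up to 0.321 between different mice. No libraries agreed within sampling noise (chi-square per degree of freedom at least 62.1 within a fraction). Without molecular identifiers reads are not independent molecules, so intervals and floors hold counting error only.

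The members, lists and markers were chosen with earlier results of these data known. Single values of 1 member and 1 listed cofactor are not reported here, while counts and sums include them. Named are the other members, Axin2, up to 4 members with the smallest p among those that passed of each pathway list (2 with the highest CPM where none passed), of marker lists at most the first 2, and noncoding rows in the clusters; names outside this rule are given as such or as listed at 0. Other marker lists were, as higher and lower in Axin2+: uterine gland 5 and 0 of 5, pericyte 0 and 4 of 6, endothelial 6 and 0 of 10, T and NK cell 0 and 5 of 7, mesothelial 4 and 1 of 6, Schwann cell 0 and 0 of 2.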

Additional observations from a re-analysis of the deposited data

How the results depend on the processing

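Over 17 alternatives none of the 15 called Hox genes changed direction, and 5 passed in every one. Of 524 values of 31 tested members 452 kept direction and side of the threshold, 46 lost a call, 15 gained one and 11 reversed, the last all in members that were not called. DESeq2 called 12 members as lower, adding Hoxa2, Hoxa6, Hoxa9, Hoxa10 and Hoxa11. With mouse as a replicate block, 8 members passed as higher and 7 as lower, and this pairing changed no other Hox call; over all genes 2085 passed as higher and 1869 as lower. With library size scaling Hoxd3 and Hoxd8 lost their calls (adjusted p = 0.0702 and 0.0717). Leaving out a library or a mouse gave 5 to 7 Hox genes higher and 0 to 10 lower, and over all genes 1018 to 2304 higher and 693 to 1911 lower. Fits on fewer libraries have fewer degrees of freedom, and where 1 library is missing the 2 left are assumed to vary like the others.

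Over all alternatives, log2 fold changes ran from -0.80 to 0.95 for Hoxa4 and from -0.0608 to 0.90 for Hoxc8. Reversed values of Hoxa4 were -0.0033 in DESeq2, -0.0221 with upper quartile scaling and -0.0113 with at least 1 CPM in 3 libraries. They were -0.0855 with the replicate block and between -0.80 and -0.16 with libraries left out. The reversed value was 0.0654 for Hoxc9, with the replicate block, and -0.0608 for Hoxc8, with libraries left out. The cause was not tested. Depth limits the low members, of which 7 could not be tested, and the 3 libraries per fraction limit the rest.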
